A study of Mus musculus with 6 samples.

Results

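The genes of the mitochondrial respiratory chain were followed across the cell types of mouse lower abdominal muscle (LAM). Members were chosen by name: every row of the count table that starts with mt- or carries a complex I to IV or ATP synthase subunit name (*Nduf*, *Sdh*, *Uqcr*, *Cox4* to *Cox8*, *Atp5*). The rule found 105 of 16494 genes, 13 encoded by the mitochondrial genome and 92 encoded in the nucleus. The nuclear members were 36 complex I genes, 8 complex I assembly factors, 4 complex II genes, 8 complex III genes, 19 complex IV genes, 15 ATP synthase genes, the coupling factor B gene *Atp5s* and the supercomplex assembly factor *Cox7a2l*. The samples were LAM of 3 wild-type (WT) and 3 Aromhum male FVB/N mice aged 9 to 10 weeks. Aromhum mice carry the human aromatase gene *CYP19A1*, which makes estrogens from androgens, with its native regulatory region, and WT mice lack it. Each mouse gave 1 library of dissociated mononuclear cells, and the filter used at dissociation removes intact multinucleated fibres.

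The respiratory chain passes electrons through complexes I to IV and uses the resulting proton gradient to make ATP at the ATP synthase. The mitochondrial genome encodes 13 of its proteins, at complexes I, III and IV and at the ATP synthase, and complex II is encoded entirely in the nucleus. Striated muscle uses its own forms of several complex IV subunits in place of the forms found in most tissues.

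The table held 63647 barcodes, of which 59227 had at least 200 genes and 1000 UMIs, the molecules counted for each barcode, and were used. Libraries held 65991626, 72876541 and 64958237 UMIs in WT 1 to 3 and 109641992, 111826460 and 92652109 in Aromhum 1 to 3, without overlap. The median UMIs per barcode used did not overlap either, at 5976, 5621 and 6412 in WT and 7587.5, 7057 and 9360.5 in Aromhum mice. *CYP19A1* had 0 UMIs in each WT library and 770, 797 and 787 in the Aromhum libraries. Clustering without the members gave 34 clusters, and 54726 barcodes fell into 10 cell types named by marker genes, while 4501 stayed unnamed. Of the unnamed, 2750 formed 1 cluster led by *Rgs5* and *Gm13889*, with markers of the endothelial and the smooth muscle/pericyte lists. It had 5.44% mitochondrial UMIs and is not part of the smooth muscle/pericyte-like type below. WT 2 stood apart: 6.03% of its UMIs came from the mitochondrial genome, against 4.30% and 4.63% in the other WT and 3.86% to 4.03% in the Aromhum libraries. WT 2 had the highest share of the 6 mice in 9 of 10 cell types. There were 471 barcode sequences found in more than 1 library.

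Mitochondrial and nuclear members ordered the cell types differently. Smooth muscle/pericyte-like cells had the highest mitochondrial genome share of UMIs in 6 of 6 mice, at 10.4% ± 1.94 (SD, n = 6), and the lowest and highest mice were at 8.54% and 13.3%. Glia-like cells followed at 7.11% ± 0.964, muscle stem cell/myoblast-like cells at 6.86% ± 0.907 and T/NK cell-like cells at 6.16% ± 1.75. The ranges of these 3 types over mice overlapped, which does not compare them within a mouse. Endothelial-like cells were at 5.00% ± 0.961, macrophage/monocyte-like cells at 4.73% ± 0.429, lymphatic endothelial-like cells at 4.51% ± 0.517, mesothelial-like cells at 4.15% ± 0.572 and fibroblast-like cells at 3.57% ± 0.483. Muscle fibre-like barcodes had the lowest share in 6 of 6 mice, 1.87% ± 0.908. The nuclear members gave the reverse at this end of the order. They made up 9.06% ± 1.54 of the UMIs of muscle fibre-like barcodes, and the highest share in 6 of 6 mice was there. In the other cell types the mean was from 1.45% in fibroblast-like to 2.45% in smooth muscle/pericyte-like cells. Mitochondrial genome UMIs outnumbered those of the nuclear members 4.22-fold ± 0.408 in smooth muscle/pericyte-like cells and 2.00-fold ± 0.286 in mesothelial-like cells, but the ratio was 0.213 ± 0.103 in muscle fibre-like barcodes. Levels of cell types are given as a description, with no test run between types.

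**Figure D1:**
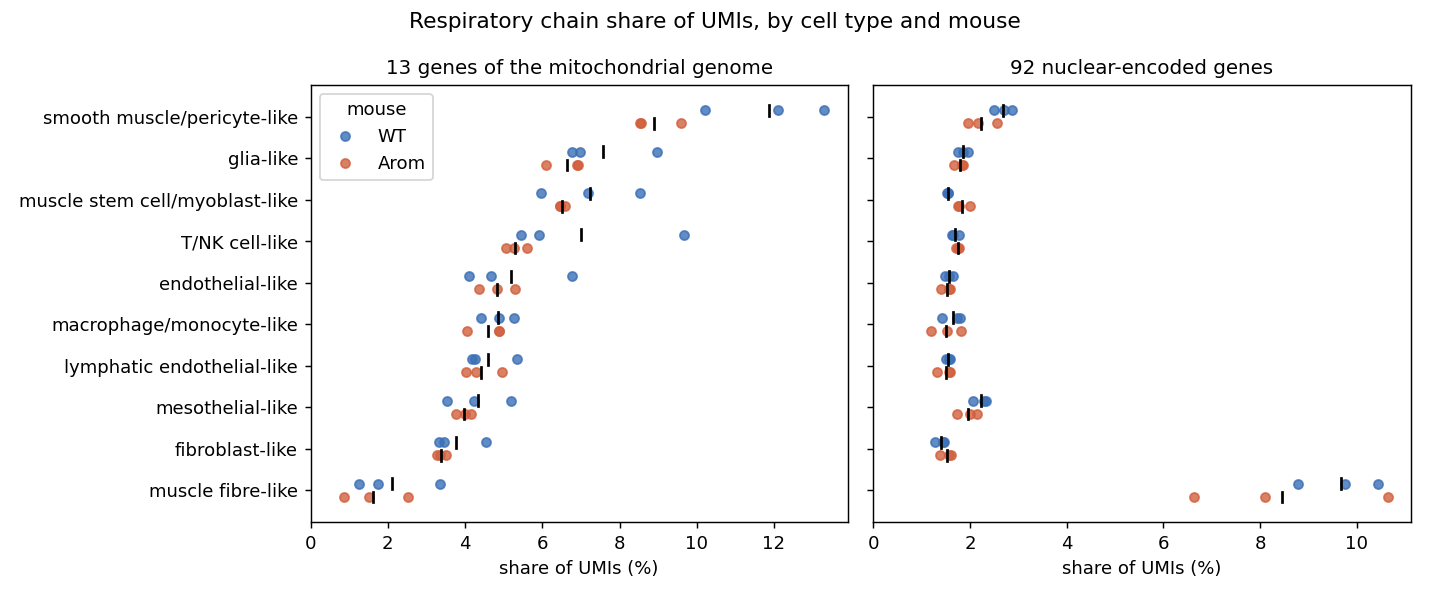
Share of UMIs (%) from the 13 mitochondrial genome genes (left) and the 92 nuclear-encoded members (right), with 1 point per mouse and a bar at the mean of each genotype. Muscle fibre-like barcodes are lowest on the left and highest on the right, and the smooth muscle/pericyte-like WT mice are above the Aromhum mice on the left.

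The low mitochondrial genome share of muscle fibre-like barcodes held for each of the 13 genes, all of which were lowest there and highest in smooth muscle/pericyte-like cells. *mt-Atp6*, an ATP synthase subunit, took 20.2% to 23.7% of mitochondrial UMIs over the cell types, *mt-Co3*, a complex IV subunit, took 18.5% to 23.8%, and *mt-Nd6*, the only one encoded on the opposite strand, took at most 0.0891%. *mt-Atp8* with *mt-Atp6* and *mt-Nd4l* with *mt-Nd4* overlap on 1 transcript each, and how their reads were divided is uncertain. The median share per barcode in muscle fibre-like barcodes was 0.986%, 3.49% and 0.219% for WT 1 to 3 and 0.264%, 0.805% and 0.257% for Aromhum 1 to 3. WT 2 was the highest and no genotype was apart from the other. From 10.2% to 78.0% of these barcodes per mouse were under 1%, against at most 3.77% in any other cell type. *Malat1*, an RNA retained in the nucleus, was at 5053 CPM ± 2454 in these barcodes and from 17020 to 42899 CPM in the other types, where CPM scales a gene's UMIs to the total UMIs of the cell type in a mouse. The 1495 muscle fibre-like barcodes passed a filter that removes whole fibres. Whether they are fragments of fibres was not tested.

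**Figure D2:**
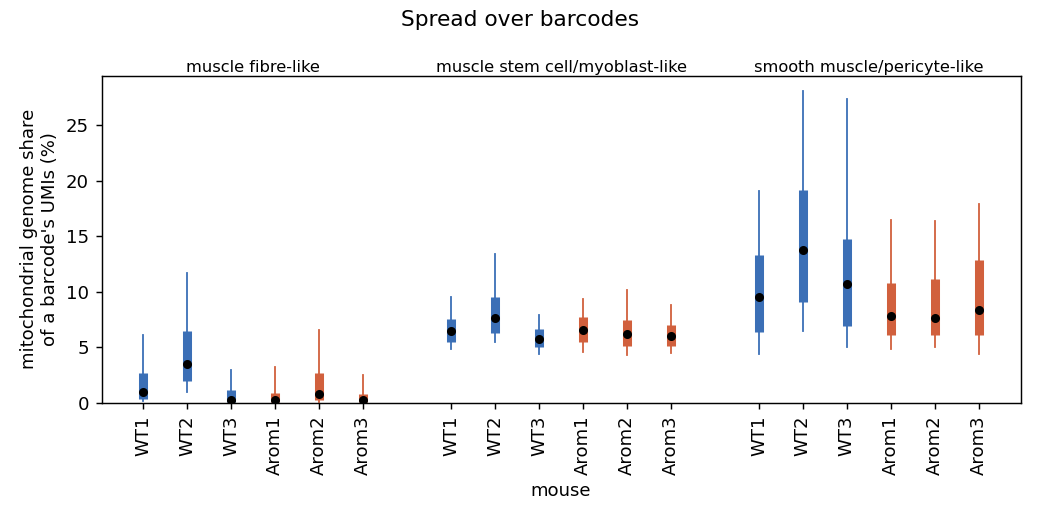
Mitochondrial genome share of the UMIs of single barcodes (%), by mouse, in 3 cell types: points are medians, thick bars the middle quartiles and thin bars the 10th to 90th percentiles. The medians of muscle fibre-like barcodes lie below those of the other 2 types in every mouse.

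Of the 92 nuclear members, 82 had their highest mean in muscle fibre-like barcodes. For 76 of these every mouse there was above every mouse of the next cell type. Over the 92, the median ratio of the level there to the median of the other types was 5.26. Complex I members summed to 28178 CPM ± 4127 in muscle fibre-like barcodes and 7251 CPM ± 1016 in smooth muscle/pericyte-like cells, the next highest type. Complex III gave 9977 CPM ± 1765 against 2613 CPM ± 381, complex IV 22999 CPM ± 5129 against 7327 CPM ± 1264, and the ATP synthase 27075 CPM ± 4342 against 6532 CPM ± 675. Complex II, which also works in the citric acid cycle, gave 1241 CPM ± 172 against 409 CPM ± 72.8. Its *Sdhb*, the iron-sulphur subunit, was at 608 CPM ± 87.0 in muscle fibre-like barcodes, 4.57-fold above the next type.

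Of the members, 55 were at least 3-fold above the next cell type with at least 20 CPM, and 51 of these were highest in muscle fibre-like barcodes. The 3 with the widest margin were the striated muscle forms of complex IV subunits. *Cox6a2* (GRCm38 chr7:128205435-128206387) was at 2543, 3085 and 3189 CPM in WT 1 to 3 and 1462, 2256 and 3382 CPM in Aromhum 1 to 3, and no other cell type had a mean above 8.13 CPM. *Cox8b* (GRCm38 chr7:140898945-140900446) was at 1167, 1677 and 2434 CPM in WT and 544, 1068 and 2033 CPM in Aromhum mice. *Cox7a1* (GRCm38 chr7:30184144-30186078) was at 678, 1049 and 1301 CPM in WT and 247, 530 and 1059 CPM in Aromhum mice. The genotypes overlapped for all 3 genes. The log2 fold changes were -0.37 ± 0.34, -0.57 ± 0.49 and -0.75 ± 0.51 (± SE), with adjusted p of 0.832, 0.812 and 0.748 by edgeR's quasi-likelihood test.

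The promoters of *Cox8b* and *Cox7a1*, which were at most 12.9 CPM outside muscle fibre-like barcodes, are shown beside those of their widely expressed partners *Cox8a* and *Cox7a2*, so that each pair can be read together. That of *Cox6a1*, the partner of *Cox6a2*, is added because it is the one shown that holds the motif. No promoter was found under the name *Cox6a2*, so it was not searched and this pair cannot be compared. The sequences are RefSeq's 250 bases before each start in GRCm38.p6, 5′ to 3′ on the gene's strand. RefSeq's starts can differ from the gene spans given above, which are GENCODE's, and the end of the *Cox7a1* window lies inside that span. Capitals mark the motif GCGCATGC, the core of the site of NRF1, a regulator of respiratory chain genes.
Cox8b, chr7:140900447-140900696, minus strand: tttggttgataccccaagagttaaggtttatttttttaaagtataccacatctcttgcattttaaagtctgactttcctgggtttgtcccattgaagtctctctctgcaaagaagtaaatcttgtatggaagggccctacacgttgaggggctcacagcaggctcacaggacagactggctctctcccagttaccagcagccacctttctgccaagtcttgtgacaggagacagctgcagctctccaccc
Cox7a1, chr7:30183921-30184170, plus strand: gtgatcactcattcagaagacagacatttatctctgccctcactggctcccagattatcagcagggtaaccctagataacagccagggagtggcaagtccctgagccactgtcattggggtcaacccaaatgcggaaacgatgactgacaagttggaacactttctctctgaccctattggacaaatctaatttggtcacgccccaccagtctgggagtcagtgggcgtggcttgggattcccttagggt
Cox8a, chr19:7217617-7217866, minus strand: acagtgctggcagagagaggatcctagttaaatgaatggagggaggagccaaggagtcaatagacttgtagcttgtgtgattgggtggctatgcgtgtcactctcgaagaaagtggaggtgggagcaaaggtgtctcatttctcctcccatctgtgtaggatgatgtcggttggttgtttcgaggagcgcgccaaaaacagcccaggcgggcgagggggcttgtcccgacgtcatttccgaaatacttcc
Cox7a2, chr9:79759854-79760103, minus strand: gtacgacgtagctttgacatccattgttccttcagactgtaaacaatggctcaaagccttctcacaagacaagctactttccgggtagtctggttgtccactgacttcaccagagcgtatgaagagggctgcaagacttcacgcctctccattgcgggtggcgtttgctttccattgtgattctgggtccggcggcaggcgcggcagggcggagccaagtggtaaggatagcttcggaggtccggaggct
Cox6a1, chr5:115348959-115349208, minus strand: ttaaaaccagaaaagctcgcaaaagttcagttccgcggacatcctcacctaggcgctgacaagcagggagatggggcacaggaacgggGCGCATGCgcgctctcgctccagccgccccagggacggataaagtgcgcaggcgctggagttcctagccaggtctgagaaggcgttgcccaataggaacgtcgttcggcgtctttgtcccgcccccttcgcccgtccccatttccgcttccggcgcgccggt
On either strand, GCGCATGC was in 9 of the 75 nuclear members with a promoter (12% of them) and in 2.56% of all 27025 genes, and AAGGTCA, a site of estrogen-related receptors, was in 6.67% and 4.70%. The median GC content was 57.4% for the members and 52.4% for all, and its part in this was not tested. The 2 orientations of GCGCATGC overlap when it runs on to GC, as in *Cox6a1*. Neither motif was found in the windows of *Cox8b*, *Cox7a1*, *Cox8a* and *Cox7a2*, so the muscle and widely expressed forms of these pairs did not differ in it. This says only that these letters are not there.

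The share of each pair of forms showed the same division. *Cox6a2* made up 97.7% ± 0.780 of *Cox6a2* and *Cox6a1* UMIs in muscle fibre-like barcodes, *Cox8b* 79.2% ± 9.27 of *Cox8b* and *Cox8a*, and *Cox7a1* 40.1% ± 7.92 of *Cox7a1* and *Cox7a2* (SD, n = 6). In the other cell types the means were at most 3.55%, 1.04% and 2.47%. *Cox6a1* and *Cox8a* were lower in muscle fibre-like barcodes than in any other type, at 58.0 CPM ± 6.06 and 327 CPM ± 38.1. Muscle stem cell/myoblast-like cells, the precursors of fibres, had the widely expressed forms, with *Cox6a2* at 7.94 CPM. The low counts of *Cox6a2* outside fibres were set against those of *Acta1*, the skeletal muscle actin: there were 4.86 *Cox6a2* UMIs per 100 *Acta1* UMIs in muscle fibre-like barcodes and from 2.92 in lymphatic endothelial-like to 8.61 in macrophage/monocyte-like cells over the other types. For *Cox8b* there were 2.63 in muscle fibre-like barcodes and from 1.51 in muscle stem cell/myoblast-like to 5.62 in lymphatic endothelial-like cells. UMIs were pooled over the 6 mice for both ratios, so they have no spread between mice. In lymphatic endothelial-like cells they rest on 13 *Cox6a2*, 25 *Cox8b* and 445 *Acta1* UMIs. The source of the counts outside fibres was not tested. Of the ATP synthase c subunit genes, which encode the same mature protein, *Atp5g1* was at 3797 CPM ± 607 in muscle fibre-like barcodes, above *Atp5g2* at 1348 CPM ± 106 and *Atp5g3* at 723 CPM ± 63.0. *Ndufaf5*, a complex I assembly factor, was at 117 CPM ± 20.6 there and 18.0-fold above the next type.

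Another 2 such genes were highest in smooth muscle/pericyte-like cells. *Cox4i2* (GRCm38 chr2:152754173-152765037), the form of subunit 4 linked to oxygen sensing, was at 247, 331 and 195 CPM in WT and 162, 127 and 180 CPM in Aromhum mice, 52.3-fold above the next type. *Ndufa4l2* (GRCm38 chr10:127514967-127517154), a hypoxia-responsive paralog of *Ndufa4*, was at 697, 994 and 553 CPM in WT and 587, 399 and 658 CPM in Aromhum mice, 14.4-fold above fibroblast-like cells. *Cox4i2* was 15.9% ± 4.46 of *Cox4i2* and *Cox4i1* UMIs, and *Ndufa4l2* was 67.6% ± 8.60 of *Ndufa4l2* and *Ndufa4* UMIs. The WT and Aromhum mice did not overlap for *Cox4i2* and overlapped for *Ndufa4l2*. The adjusted p-values by edgeR's quasi-likelihood test were 0.104 and 0.305. Fibroblast-like cells held *Ndufa4l2* too, at 11.3% ± 5.40 of its pair. Pooled over mice, they had 376 *Ndufa4l2* UMIs per 100 of *Rgs5*, a marker on the smooth muscle/pericyte list. Smooth muscle/pericyte-like cells had 16.4. Mesothelial-like cells had *Cox6b2*, named for its abundance in testis, at 54.2 CPM ± 11.8 and the assembly factor *Ndufaf1* at 50.8 CPM ± 14.4, which were 3.34-fold and 3.84-fold above the next type. *Cox7b2* and *Cox8c* were at or below 0.2 CPM in all 10 types.

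**Figure D3:**
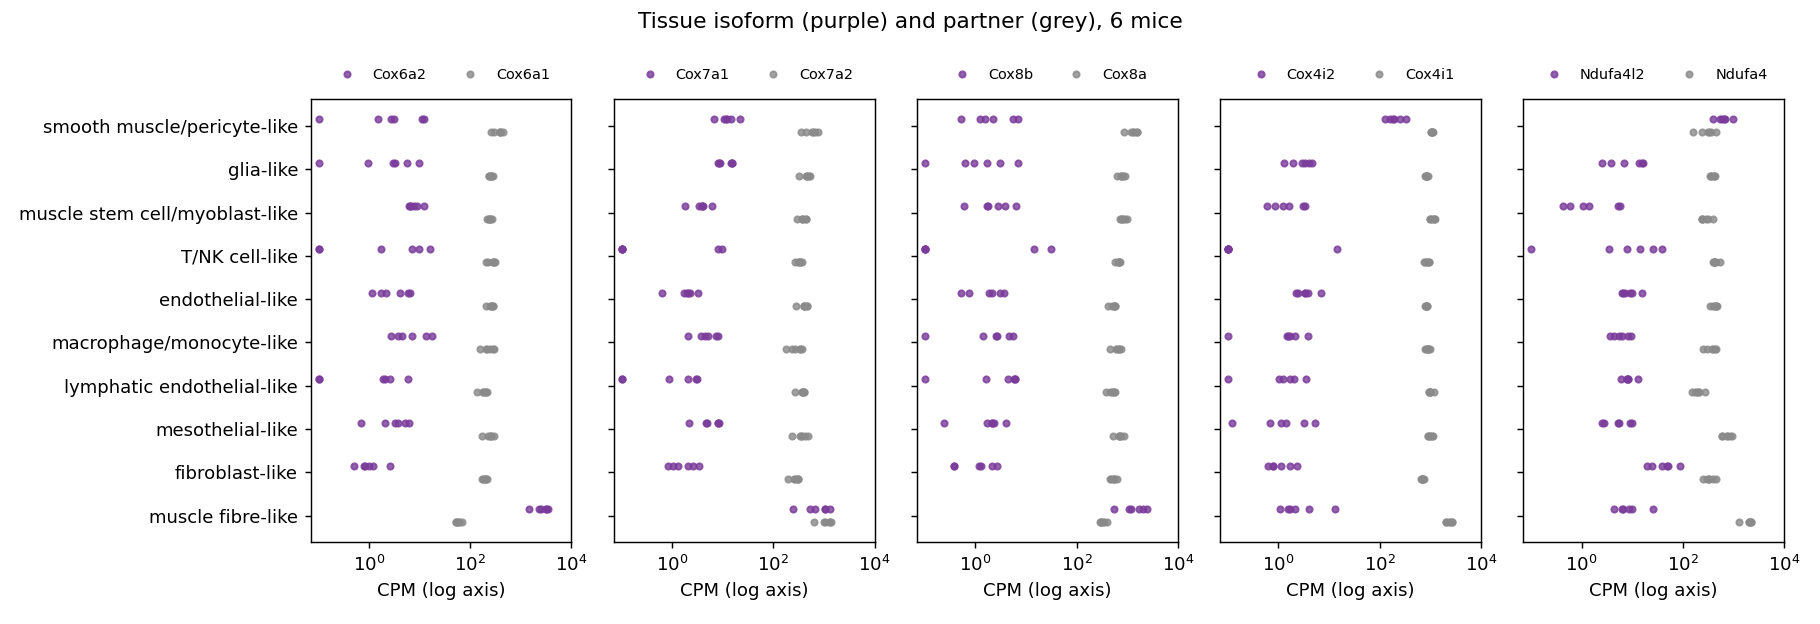
CPM on a log axis of 5 tissue forms (purple) and their widely expressed partners (grey) in each cell type, with 1 point per mouse and values of 0 drawn at 0.1. *Cox6a2*, *Cox7a1* and *Cox8b* are high in muscle fibre-like barcodes and *Cox4i2* and *Ndufa4l2* in smooth muscle/pericyte-like cells.

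WT and Aromhum mice were then compared within each cell type. For the mitochondrial genome share, the Aromhum mean was lower in 10 of 10 cell types, and in 1 of them the mice did not overlap. Aromhum libraries also had more UMIs per barcode, and the part of depth in this was not tested. Without WT 2 the difference turned positive in endothelial-like (0.439 points), lymphatic endothelial-like (0.193), mesothelial-like (0.0836) and muscle fibre-like cells (0.124). Smooth muscle/pericyte-like cells were at 11.9% ± 1.56 in WT and 8.90% ± 0.610 in Aromhum mice (n = 3 each), a difference of -2.97 percentage points. The exact two-sided permutation test gave p = 0.1, the smallest that 3 against 3 mice allow, and 0.75 after adjustment over 10 cell types. Among barcodes within the study's upper limits (2500 genes, 5% mitochondrial UMIs) the difference turned to 0.249 points. That limit caps the measure compared: in this type 85.5% to 95.9% of barcodes per mouse were over 5%, and from 15 to 61 barcodes per mouse remained. Nuclear members did not overlap in muscle stem cell/myoblast-like cells, at 1.54% ± 0.0136 in WT and 1.83% ± 0.133 in Aromhum mice (exact permutation p = 0.1, adjusted p = 0.6). The log2 ratio of mitochondrial genome to nuclear UMIs also did not overlap there, at 2.22 ± 0.27 and 1.83 ± 0.11 (exact permutation p = 0.1, adjusted p = 0.667). In the other types the 3 measures overlapped between genotypes.

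Member by member, smooth muscle/pericyte-like cells had the most one-sided pattern. Of 99 members tested, 3 were above 0 and the median log2 fold change was -0.36, against -0.01 over all 9458 genes tested. By edgeR's quasi-likelihood test 0 passed an adjusted p of 0.05, where 0.698% of all genes passed, and DESeq2 called 1 lower, where 0.698% of all genes were. With the replicate number as a block 12 fell and 0 rose, where 1.74% of all genes fell. In these cells same-numbered mice correlated from 0.0481 to 0.22, not over 0.1 in every pair, and 6 of 6 mice correlated best with their own number. At an unadjusted p under 0.05 with the replicate block, 68 members were lower and 0 higher, where 1091 of 9458 genes were lower. At this p without the block, 37 members were lower and 0 higher, against 9.15% of all genes lower. These 37 were 9 of 13 mitochondrial genome genes, 15 of 36 complex I, 3 of 4 complex II, 1 of 8 complex III, 6 of 15 complex IV, 2 of 15 ATP synthase genes and 1 of 7 assembly factors. After TMM scaling, *mt-Cytb*, the mitochondrially encoded subunit of complex III, was at 11908, 15140 and 13528 CPM in WT and 9477, 8557 and 10233 CPM in Aromhum mice. The genotypes did not overlap (log2 fold change -0.52 ± 0.19, adjusted p = 0.186 by edgeR). *Sdhc*, a membrane anchor of complex II, was at 136, 142 and 164 CPM in WT and 83.4, 81.4 and 123 CPM in Aromhum mice, also after TMM scaling (log2 fold change -0.62 ± 0.18, adjusted p = 0.12 by edgeR).

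These cells formed 3 clusters, whose shares differed between mice and were not tested. The cluster led by *Gm13889* and *H2-M9* held 31.7%, 19.4% and 23.5% of the cells in WT and 54.3%, 52.1% and 30.4% in Aromhum mice, and the genotypes overlapped. Its mitochondrial genome share was the lowest of the 3, 8.78% ± 2.45 in WT and 6.84% ± 0.596 in Aromhum mice. Within the cluster led by *Acta2* and *Myh11*, smooth muscle contractile genes, the mitochondrial share was 12.9%, 15.1% and 14.97% in WT and 11.6%, 10.5% and 12.3% in Aromhum mice, without overlap (exact permutation p = 0.1). Its nuclear share also did not overlap, at 3.38% ± 0.142 and 2.88% ± 0.228. A few clusters of other types were apart in mitochondrial share too. The fibroblast-like cluster led by *Pnoc* and *Ren1* was at 5.03% ± 0.823 in WT and 3.81% ± 0.215 in Aromhum mice. That led by *Mup5* and *Tspan8* was at 3.59% ± 0.626 and 3.09% ± 0.0296, and its nearest mice were at 3.20% (WT 1) and 3.12% (Aromhum 1). A macrophage/monocyte-like cluster of 39 cells, with 1 of them in Aromhum 3, did not overlap either. Each of these had an exact permutation p of 0.1, the smallest possible, with no adjustment over clusters. Besides these and the *Acta2* and *Myh11* cluster, every cluster of the named types overlapped in mitochondrial share. Within the *Kcnj8* and *Rgs5* cluster, led by pericyte genes, the mitochondrial share overlapped, at 9.64% ± 2.04 and 8.82% ± 0.341. Of the members tested within the *Acta2* and *Myh11* cluster, 31 of 97 were lower and 0 higher at an unadjusted p under 0.05, where 5.38% of all genes were lower. In the *Gm13889* and *H2-M9* cluster 7 of 94 were lower, where 7.2% of all genes were, and in the *Kcnj8* and *Rgs5* cluster 1 of 93, where 2.85% were. These fits of single clusters were added after the data were seen. In the type as a whole *Malat1* differed by -0.42 ± 0.23 (log2, adjusted p = 0.353 by edgeR). All 5 genes listed as signs of dissociation or RNA quality (*Malat1*, *Fos*, *Jun*, *Hspa1a*, *Hspa1b*) were lower in Aromhum mice. Of these, 4 had an unadjusted p under 0.05 and 1 was past the test, with a median of -0.96. Of 6 muscle fibre markers tested, 5 were lower at an unadjusted p under 0.05 and 0 called. Of 7 markers of the Mmp3hi fibroblast subset, a list the study chose on these samples, 7 were higher at an unadjusted p under 0.05 and 3 called, and of 4 macrophage and monocyte markers 3 were higher and 1 called. Their part in the pattern was not tested. Without Aromhum 3, 14 members fell, where 3.48% of all genes did. Without any other single mouse 0 members were called, where 0.0103% to 0.217% of all genes were.

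**Figure D4:**
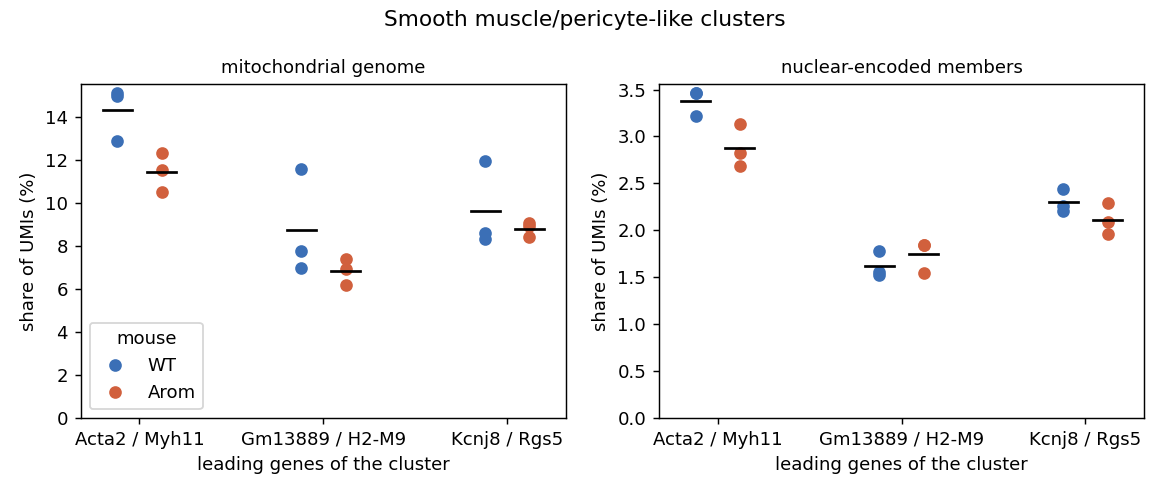
Share of UMIs (%) from mitochondrial genome genes and from nuclear-encoded members in the 3 smooth muscle/pericyte-like clusters, named by leading genes, with 1 point per mouse and a bar at each mean. WT and Aromhum mice are apart in the *Acta2* and *Myh11* cluster and overlap in the others.

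In muscle stem cell/myoblast-like cells 2 of 96 members rose in Aromhum mice and 0 fell, where 1.36% of all genes tested rose and 0.986% fell. *Ndufs8* (GRCm38 chr19:3908863-3912774), an iron-sulphur subunit of complex I, was at 43.0, 38.6 and 39.0 CPM in WT and 86.5, 74.1 and 60.9 CPM in Aromhum mice after TMM scaling, without overlap (log2 fold change 0.88 ± 0.16, adjusted p = 0.0303 by edgeR). *Atp5c1* (GRCm38 chr2:10056016-10080510), the γ subunit of the ATP synthase, was at 180, 163 and 156 CPM in WT and 307, 252 and 232 CPM in Aromhum mice (0.66 ± 0.15, adjusted p = 0.0481 by edgeR). With the replicate number as a block, which these cells' correlations called for, 5 rose and 0 fell, where 2.79% of all genes rose and 2.52% fell, and DESeq2 called 5 higher, where 2.13% of all genes were. At an unadjusted p under 0.05, 20 members were higher and 1 lower, against 11.4% of all genes higher, and 11 of the 20 were complex I and 6 ATP synthase genes. The replicate block gave 22 higher and 6 lower at this p, where 962 and 943 of 8110 genes were. All 13 mitochondrial genome genes were below 0, with a median of -0.26, and 0 had an unadjusted p under 0.05. Of 15 glycolysis genes 2 rose, *Eno1* by 1.05 ± 0.17 and *Pgk1* by 0.92 ± 0.18 (log2), and of 18 electron carrier and assembly genes *Higd1a* fell by 0.91 ± 0.19. Fibroblast markers moved in the same cells: 6 of 7 tested rose, with *Col1a1* from 16.6 to 27.0 CPM in WT and 62.8 to 375 CPM in Aromhum mice. Of 7 markers of the cells' own type 2 fell, and of 5 dissociation or RNA quality genes 2 fell, with a median of -0.95. Leaving out barcodes with the highest doublet scores left 1 member called, where 2.1% of all genes were. Without Aromhum 3, 11 members rose, where 5.41% of all genes did, and without WT 1 there was 1, where 1.64% of all genes were called. Without any other single mouse there were 0, where at most 0.0121% of all genes were called, and within the study's upper limits 0, where 1.13% were. The part of these lists in the calls was not tested.

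Fibroblast-like cells had 3 members higher and 1 lower of 103 tested, where 7.64% of all genes rose and 5.75% fell. The split depended on the test: DESeq2 called 13 higher and 3 lower, where 11% and 9.65% of all genes were, and the replicate block gave 1 higher and 3 lower, where 4.82% and 4.54% were. *Uqcrq* (GRCm38 chr11:53427922-53430831), a small subunit of complex III, was at 122, 155 and 173 CPM in WT and 220, 279 and 228 CPM in Aromhum mice, without overlap (log2 fold change 0.69 ± 0.16, adjusted p = 0.0384 by edgeR). *Ndufs8* rose by 0.37 ± 0.09 and *Ndufa8*, an accessory subunit of complex I, by 0.41 ± 0.11 (adjusted p = 0.042 and 0.0475 by edgeR). *Cox4i2* fell by 1.204 ± 0.298 (adjusted p = 0.0432 by edgeR), from 1.70 CPM ± 0.569 to 0.724 CPM ± 0.0872. Its mean over all mice was 1.21 CPM in fibroblast-like and 207 CPM in smooth muscle/pericyte-like cells, and 1 of 9 smooth muscle and pericyte markers fell with it. At an unadjusted p under 0.05, 22 of 103 members were higher and 5 lower, against 18.1% of all genes higher, and 13 of the 22 were complex I genes. Of 12 regulators of mitochondrial genes, *Twnk*, the mitochondrial DNA helicase, rose by 1.30 ± 0.18 and *Ppargc1a*, a coactivator of respiratory genes, fell by 1.54 ± 0.38. Of 16 glycolysis genes, *Gapdh* rose by 0.96 ± 0.20 and *Pgk1* by 0.84 ± 0.21. Among 13 citric acid cycle genes *Mdh2* rose by 0.49 ± 0.12, and among 19 carrier and assembly genes *Cox14* rose by 0.48 ± 0.11. Other lists moved in the same cells. Endothelial markers fell for 6 of 8, and 4 of 8 macrophage and monocyte and 2 of 6 mesothelial markers rose. Of subset markers, lists chosen on these samples, 8 of 11 Esr1hi and 3 of 9 Mmp3hi rose. Among 5 dissociation or RNA quality genes 2 fell. Their part in the calls was not tested. The shares of clusters differed between mice too, and their part in the calls was not tested. That led by *Pnoc* and *Ren1* held 10.5%, 4.79% and 6.86% of the cells in WT and 30.3%, 27.1% and 18.7% in Aromhum mice. The *Mup5* and *Tspan8* cluster held 24.2%, 22.7% and 20.2% in WT and 6.30%, 8.70% and 11.4% in Aromhum mice. Neither overlapped. The *Mmp3* and *Cpxm1* cluster held 5.41%, 0.201% and 0.602% in WT and 20.7%, 25.9% and 0.709% in Aromhum mice. That led by *Gsn* and *Abca8a* held 35.3%, 47.3% and 45.2% in WT and 20.6%, 15.3% and 40.7% in Aromhum mice. Within it alone 0 of 101 members were higher and 1 lower by edgeR, where 3.97% of all genes were called, and *Uqcrq* was at 0.27 ± 0.16 with an adjusted p of 0.385 by edgeR. Without Aromhum 3, 18 members were called, where 29.6% of all genes were. Without any other single mouse 0 were, where 0.0287% to 0.831% of all genes were, and within the study's upper limits 0 were, where 0.00917% were.

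In endothelial-like cells 1 of 103 members rose and 3 fell, where 8.37% and 6.36% of all genes did. The shares of some clusters of these cells did not overlap between genotypes, which was not tested: that led by *Selp* and *Ackr1*, genes of venules, held 17.4%, 9.02% and 12.8% in WT and 47.1%, 35.6% and 32.7% in Aromhum mice, and that led by *Timp4*, *Gpihbp1* and *Ier5l* held 28.3%, 25.6% and 24.5% in WT and 10.1%, 9.91% and 12.995% in Aromhum mice. *Ndufaf4*, a complex I assembly factor, was at 22.6, 16.5 and 17.8 CPM in WT and 35.0, 29.9 and 28.8 CPM in Aromhum mice (log2 fold change 0.72 ± 0.15, adjusted p = 0.0136 by edgeR). *Cox6a2* fell by 1.71 ± 0.29, *Ndufa4l2* by 0.75 ± 0.20 and *Atp5s* by 0.87 ± 0.24, all from means of at most 11.4 CPM. The first 2 are the forms described above as highest in muscle fibre-like barcodes and in smooth muscle/pericyte-like cells. All 8 muscle fibre markers tested fell in the same cells, *Acta1* by 1.22 ± 0.21 and *Ckm*, muscle creatine kinase, by 1.48 ± 0.26. Smooth muscle and pericyte markers fell for 2 of 9, and dissociation or RNA quality genes for 4 of 5. In contrast 9 of 9 Mmp3hi and 5 of 9 Esr1hi fibroblast subset markers and 5 of 11 fibroblast markers rose. The part of these lists in the calls was not tested. With the replicate number as a block, 4 members rose and 14 fell, where 13.4% and 10.7% of all genes did. The count was 1 without Aromhum 1 or without WT 2, 2 without Aromhum 2, and 0 within the study's upper limits, where 3.98%, 5.11%, 6.72% and 8.17% of all genes were called. Of 9 regulators, *Tfb2m*, *Twnk* and *Pprc1* rose, by 0.48 ± 0.13, 0.68 ± 0.20 and 0.52 ± 0.15, and *Esrra* fell by 0.64 ± 0.17. Among citric acid cycle genes *Dlst* rose by 0.53 ± 0.12 and *Idh3a* by 0.46 ± 0.13.

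**Figure D5:**
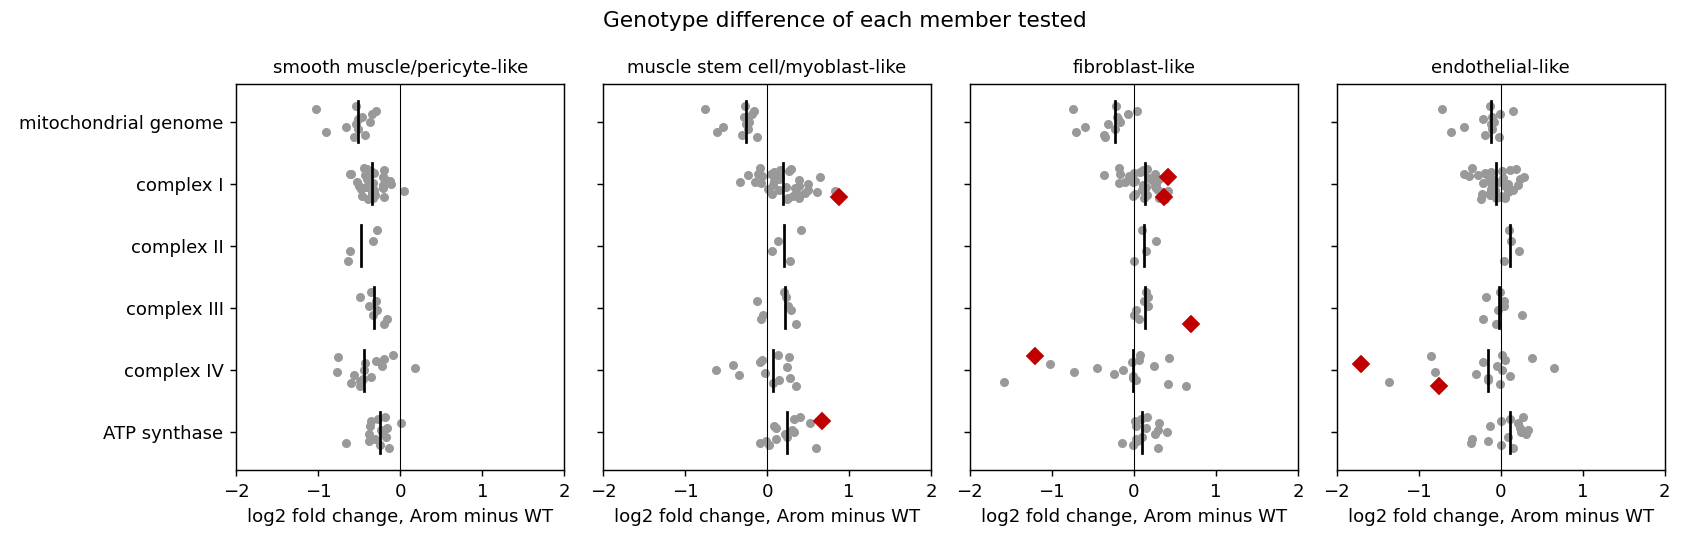
Log2 fold change (Aromhum minus WT) of each member tested in 4 cell types, by complex; red diamonds passed an adjusted p of 0.05 in edgeR and black bars are medians. Nearly all members of smooth muscle/pericyte-like cells lie left of 0, with complex medians from -0.25 for the ATP synthase to -0.52 for the mitochondrial genome, and 0 passed.

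In the remaining cell types edgeR called 0 members. Of all genes tested it called 0.642% in glia-like, 0.0393% in lymphatic endothelial-like, 0.412% in mesothelial-like, 0.176% in muscle fibre-like, 1.05% in T/NK cell-like and 0% in macrophage/monocyte-like cells. Members at an unadjusted p under 0.05 numbered 6 of 99 in glia-like, 4 of 92 in lymphatic endothelial-like, 5 of 102 in mesothelial-like, 4 of 101 in muscle fibre-like, 3 of 84 in T/NK cell-like and 1 of 99 in macrophage/monocyte-like cells. Of all genes, 10.4%, 7.03%, 20.9%, 8.77%, 13% and 7.15% had such a p in these types, in the same order. At the same unadjusted p with the replicate block, 38 of 101 members were lower and 0 higher in muscle fibre-like barcodes, where 535 of 7393 genes were lower. In macrophage/monocyte-like cells it was 8 of 99 lower and 0 higher, where 359 of 9473 genes were lower. In glia-like cells, whose pairs did not all correlate above 0.1, it was 23 of 99 lower and 0 higher, where 591 of 9505 genes were lower. DESeq2 called 1 higher in mesothelial-like cells, where 3.49% of all genes were, and 0 members in the other 5. With the replicate number as a block and an adjusted p under 0.05, 5 members fell in muscle fibre-like barcodes, where 1.49% of all genes did. In glia-like cells 3 did, where 0.663% of all genes did.

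The difference between cell types was tested for the 2 largest, as the genotype effect in fibroblast-like minus that in endothelial-like cells within the same mice. Of 104 members 6 passed, 5 with a higher effect in fibroblast-like cells, where 11.3% of all genes passed. *Uqcrq* differed by 0.75, since it rose in fibroblast-like cells and was at -0.05 ± 0.12 in endothelial-like cells (adjusted p = 0.0121 by edgeR). *Ndufaf4* differed by -0.79, since it rose in endothelial-like cells and was at -0.05 ± 0.09 in fibroblast-like cells (adjusted p = 0.0172 by edgeR). The others were *Ndufa3*, *Ndufv3*, *Ndufa4* and *Ndufs8*, all of complex I or IV, at 0.69, 0.60, 0.42 and 0.38. Without Aromhum 1, 2 and 3 in turn the count was 0, 2 and 13, where 2.94%, 4.75% and 16.7% of all genes passed. Without WT 1, 2 and 3 it was 4, 1 and 3, where 7.03%, 2.66% and 5.43% passed. It was 0 within the study's upper limits, where 0.492% passed.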

How the data were processed

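Single cells of LAM from 3 WT and 3 Aromhum mice were measured with a 10x Genomics protocol that counts transcript ends. The authors deposited 1 table of raw UMI counts per gene and barcode. The submitters' processing notes name Cell Ranger 3.0.2 and the mm10 build, to which the human aromatase gene had been added. Members and lists were chosen with earlier results of these data known. Barcodes with at least 200 genes and 1000 UMIs were kept. The study's upper limits (2500 genes, 5% mitochondrial UMIs) were an alternative, because the latter selects on the members. Counts without the members were scaled to 10000, and 2000 variable genes, 30 principal components, 20 neighbours and Leiden clustering (resolution 0.8; scanpy 1.11.5, leidenalg 0.10.2) gave clusters, named "-like" from marker lists. Doublets were kept in the main cell set. The alternative removed the highest Scrublet scores at 0.8% per 1000 barcodes, since Scrublet's own threshold marked 0% of WT 3.

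For each cell type the UMIs of a mouse were added up. The edgeR 4.0.16 quasi-likelihood test (TMM, filterByExpr, Benjamini-Hochberg over all genes tested, adjusted p under 0.05) compared genotypes, with DESeq2 1.42.0 as an alternative, and the script was tested on simulated data. CPM printed with the genotype call of a member are after TMM scaling, as are those of *mt-Cytb* and *Sdhc*, while CPM given as levels of cell types are not. Shares were compared by exact permutation over mice. Named genes were the 13 mitochondrial genes, complex IV and c subunit forms, complex II, up to 6 called members per direction and cell type, and members at least 3-fold above the next type with at least 20 CPM; other members are described by counts. A UMI counts a transcript once whatever its length, so CPM does not scale with transcript length. Differences in capture between transcripts were not measured, so comparisons between genes are approximate. Reads that match nuclear copies of mitochondrial genes, and *Atp5o.1*, a symbol made unique in the table, are uncertain.

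The study processed 1 WT and 1 Aromhum littermate on each of 3 dates. The labels give each mouse a number but do not tie numbers to dates. Deviations of same-numbered mice from their group means correlated above 0.1 in every pair in endothelial-like (0.158 to 0.318), macrophage/monocyte-like (0.156 to 0.257), muscle fibre-like (0.137 to 0.244) and muscle stem cell/myoblast-like cells (0.104 to 0.189). There, blocked counts of members called by adjusted p are given beside results where they differ by over 1.5 times. The rule was applied per cell type, though processing dates belong to mice. Adjusted p-values of single members within a cell type come from the fit without a block.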

Additional observations from a re-analysis of the deposited data

Results flagged for a closer look

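Genotype effects of 6 of 104 members differed between fibroblast-like and endothelial-like cells by a test of the difference itself, where 11.3% of all genes did. The count was 0 within the study's upper limits, where 0.492% of all genes passed, and from 0 to 13 when each mouse was left out in turn, where 2.66% to 16.7% did. On the log2 scale, the effect in fibroblast-like minus that in endothelial-like cells was -0.79 for *Ndufaf4*, 0.75 for *Uqcrq*, 0.69 for *Ndufa3*, 0.60 for *Ndufv3*, 0.42 for *Ndufa4* and 0.38 for *Ndufs8*. *Ndufa3*, *Ndufv3* and *Ndufa4* passed an adjusted p of 0.05 in this test and in neither cell type alone (edgeR).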

How the results depend on the processing

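Shares and counts rest on few mice, and 3 against 3 cannot give an exact p under 0.1. The 10 calls of members and the 6 differences between types kept direction under every alternative run on them, 118 times with their side of the threshold and 100 times below it; members that were not called were not followed one by one. Using every deposited barcode gave the same cells, since barcodes under the lower limits had no type.

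Among barcodes within the study's limits the mitochondrial share difference turned to 0.249 points in smooth muscle/pericyte-like cells, the nuclear share difference to 0.0341 in macrophage/monocyte-like cells (0.0415 with the gene limit only), and the log2 ratio difference to 0.0224 in endothelial-like, -0.0349 in macrophage/monocyte-like and 0.25 in smooth muscle/pericyte-like cells. At resolution 0.4 the mitochondrial share difference was 0.487 in muscle stem cell/myoblast-like cells, and in the *Gm13889* and *H2-M9* cluster alone the nuclear one was 0.127. Members called within the study's limits were 0 in endothelial-like, fibroblast-like and muscle stem cell/myoblast-like cells and 0 in the test between types, where 8.17%, 0.00917%, 1.13% and 0.492% of all genes were called. Fibroblast-like cells had 16 with DESeq2 (13 higher and 3 lower, where 11% and 9.65% of all genes were), 1 with no filter on low counts, 0 with the gene limit only, 1 without the Esr1hi and Mmp3hi clusters and 1 in the *Gsn* and *Abca8a* cluster, where the last 4 called 8.83%, 0.0173%, 3.36% and 3.97% of all genes. Muscle stem cell/myoblast-like cells had 1 with RLE size factors, with a mitochondrial limit of 20%, without doublets or at resolution 0.4, 4 with no filter and 5 with DESeq2, where 2.1% to 4.22% of all genes were called. Smooth muscle/pericyte-like cells had 1 with no filter or DESeq2, where 2.59% and 2.19% of all genes were called, and mesothelial-like cells 1 with DESeq2 or without doublets, where 5.65% and 2% were. With the replicate block the counts were 18 in endothelial-like, 5 in muscle fibre-like, 5 in muscle stem cell/myoblast-like, 12 in smooth muscle/pericyte-like and 3 in glia-like cells, and in fibroblast-like cells 1 was higher and 3 lower. Those of the smooth muscle/pericyte-like and glia-like cells were all lower, where 1.74% and 0.663% of all genes were. In the last 3 types not every pair correlated above 0.1.

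Leaving out each mouse in turn, members called ranged from 1 to 5 in endothelial-like, 0 to 18 in fibroblast-like, 0 to 2 in mesothelial-like, 0 to 11 in muscle stem cell/myoblast-like and 0 to 14 in smooth muscle/pericyte-like cells, and from 0 to 13 in the test between types. Calls over all genes ranged from 3.98% to 14.5%, 0.0287% to 29.6%, 0% to 13.5%, 0% to 9.87%, 0.0103% to 8.59% and 2.66% to 16.7% in the same order. The mitochondrial share difference ranged from -0.906 to 0.439 in endothelial-like, -0.444 to 0.193 in lymphatic endothelial-like, -0.478 to 0.0178 in macrophage/monocyte-like, -0.743 to 0.0836 in mesothelial-like and -0.932 to 0.124 in muscle fibre-like cells. The nuclear one ranged from -0.0824 to 0.0154 in endothelial-like, -0.115 to 0.0017 in glia-like, -0.107 to 0.0282 in lymphatic endothelial-like and -0.296 to 0.0194 in macrophage/monocyte-like cells. The log2 ratio difference ranged from -0.19 to 0.14 in endothelial-like, -0.0719 to 0.12 in lymphatic endothelial-like, -0.15 to 0.30 in macrophage/monocyte-like, -0.0328 to 0.21 in mesothelial-like and -0.57 to 0.40 in muscle fibre-like cells. The cause was not tested.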
